A study of Mus musculus with 21 samples.

Results

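The comparison asked whether bone marrow-derived macrophages carrying a Cx3cr1-driven Cre and floxed Gata3 responded to the cytokine IL-33 differently from wild-type macrophages. The measure was an interaction, the log2 IL-33 response of floxed cells minus that of wild-type cells, taken for every autosomal gene that passed an expression filter. It covered 13908 autosomal genes of 14473 tested genes and of 47069 genes in the count table. The other tested genes included 489 on the X and Y chromosomes, 15 encoded in mitochondria and 51 with no chromosome in the references used.

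The comparison used 4 groups of 3 RNA sequencing libraries, all from C57BL/6 mice. They were floxed cells (labelled Cx3cr1CRExGata3fl/fl) with IL-33, floxed cells with no cytokine, wild-type cells with IL-33, and wild-type cells with no cytokine. All were marrow cells cultured for 5 days in M-CSF-conditioned medium, with the cytokine given for 36 h where it was given. A Cre-only group and a group with floxed Gata3 but no Cre were not analysed here, so effects of the Cre, of the floxed allele and of the loss of Gata3 cannot be told apart. The 12 libraries held 33.8 to 48.7 M counted reads. Nothing in the labels says whether the 3 libraries of a group came from separate animals or cultures, so the p-values speak only of how these libraries vary, which could be technical. Levels are CPM, counts scaled to library size by edgeR, changes are log2 values ± standard error, and a gene was called at a Benjamini-Hochberg adjusted p under 0.05 in edgeR's quasi-likelihood test. Error on CPM is the standard deviation with n = 3 unless values of single libraries are given.

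IL-33 signals through ST2, the receptor chain encoded by Il1rl1, with the shared chain encoded by Il1rap, and on through MyD88 and IRAK kinases to NF-kB. GATA3 is a zinc-finger transcription factor that binds GATA motifs and is best known for directing type 2 T helper cells and type 2 innate lymphoid cells, where it also acts on Il1rl1. In macrophages, IL-33 is known to favour alternative activation, a state marked by arginase 1, chitinase-like proteins and lectins such as those encoded by Mgl2 and Mrc1.

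The labels were checked first. Gata3 (chromosome 2, 9857078 to 9890034, GRCm38) was close to absent in every library. It had 14, 9 and 14 counts in the floxed IL-33 libraries and 11, 3 and 18 in the unstimulated floxed libraries, against 7, 10 and 5 in wild-type libraries with IL-33 and 4, 6 and 7 without. Counts in floxed and wild-type libraries overlapped, and the floxed sum (69) was above the wild-type sum (39). Counts per gene cannot show whether the floxed exons were lost, so the deletion was not checked by these data. Sex moved with genotype: the X-inactivation transcript Xist stood at 277 to 376 CPM in all 6 floxed libraries, and its highest wild-type level was 0.0264 CPM. The Y-linked gene Ddx3y reached 0.0286 CPM at most in floxed libraries and stood at 62.2 to 86.3 CPM in wild-type libraries. Sex and genotype cannot be told apart in any floxed against wild-type difference below, for which reason the members are autosomal. Macrophage core markers (11 of 11 tested, among them Csf1r, Cd68, Lyz2 and Adgre1) summed to 36573 to 37455 CPM in floxed IL-33 libraries and 26846 to 29454 CPM in unstimulated floxed libraries, against 38546 to 42590 and 29028 to 31929 CPM in wild-type libraries with and without IL-33.

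The IL-33 response was broadly shared by the genotypes, and a small part of it differed. IL-33 changed 4674 autosomal genes in floxed cells (33.6% of those tested) and 4950 in wild-type cells (35.6%). The interaction was called for 172 genes (1.24%), 76 higher (0.546%) and 96 lower (0.69%) in floxed cells. At an unadjusted p under 0.05 the interaction held 1899 genes (13.7%), 900 higher (6.47%) and 999 lower (7.18%). DESeq2 called 359 genes (2.58%) and limma-voom 166 (1.19%), and edgeR with the replicate number as a block called 347 (2.49%). Most of the called interactions were modest, with a median size of 0.547 log2 units, and 23 genes differed by at least 2-fold, 4 higher (0.0288%) and 19 lower (0.137%). The count depended on single libraries. It was 92, 85 and 108 without unstimulated floxed library 1, 2 or 3, 75 and 52 without floxed IL-33 library 1 or 3, and 62 and 65 without unstimulated wild-type library 1 or 3. Without wild-type IL-33 library 1, 2 or 3 it was 266, 54 and 111.

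The responses of the genotypes come from separate libraries, and across the 13908 genes they went together with a Pearson r of 0.740 and a Spearman rho of 0.642, a description across genes that share libraries within each genotype. Of 493 genes raised at least 2-fold in floxed cells (3.54%) and 594 in wild-type cells (4.27%), 384 were the same, 77.9% of the floxed list and 64.6% of the wild-type list. Of 397 genes lowered at least 2-fold in floxed cells (2.85%) and 350 in wild-type cells (2.52%), 208 were the same, 52.4% and 59.4% of the lists. The genes raised at least 2-fold in wild-type cells had a median response of 1.41 log2 units in floxed cells and 1.90 in wild-type cells. Those raised at least 2-fold in floxed cells had medians of 1.81 in floxed cells and 1.73 in wild-type cells. Each list thus had its larger median in the genotype that chose it.

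**Figure D1:**
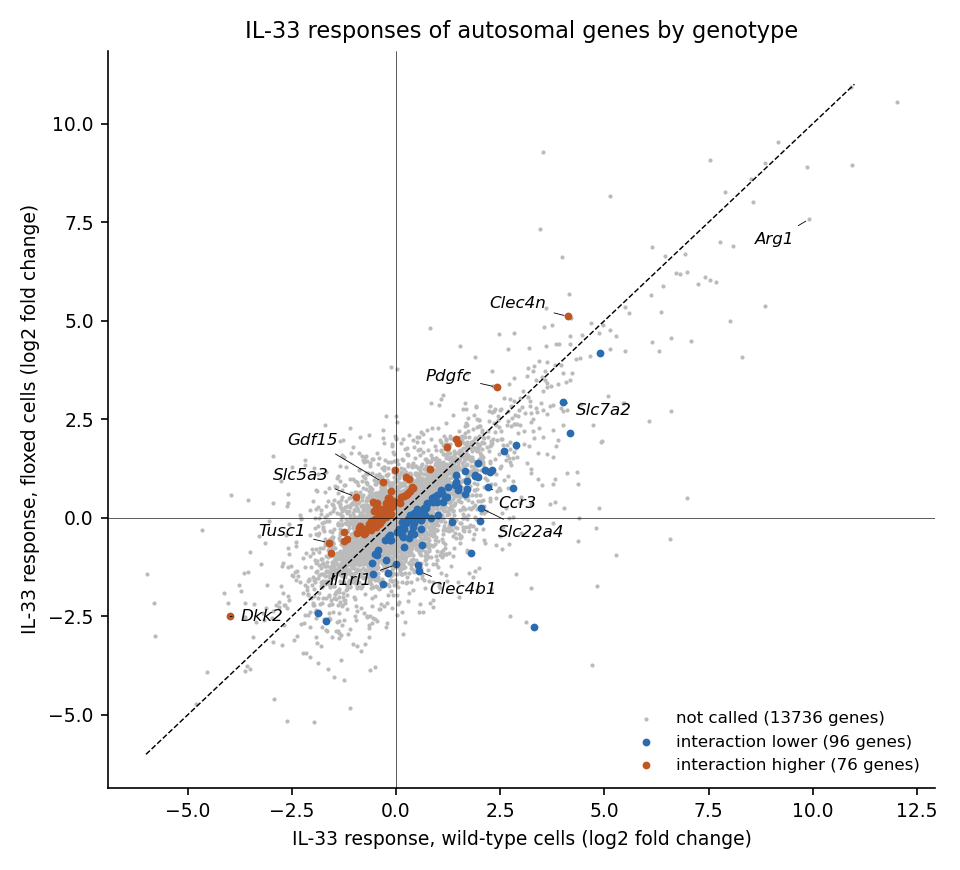
IL-33 response of each of 13908 autosomal genes in floxed cells (vertical axis) and in wild-type cells (horizontal axis), both as log2 fold change of IL-33 over no cytokine. Blue points are the 96 genes with a called lower interaction and orange points the 76 with a called higher one, grey points were not called, and the dashed line marks equal responses; Arg1 lies among the uncalled genes far up both axes.

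Of the 172 calls, 47 held in each of 21 other fits, which changed the normalization, test, filter or libraries or left out 1 library at a time. They comprised 31 lower and 16 higher genes. Genes named only because they held in every fit were picked after their values had been seen. The genes named by rule were the 10 lowest and 10 highest interactions among the 161 called protein-coding genes whose mean level reached 2 log2 CPM (88 lower, 73 higher), and leading called members of gene lists. The tenth and eleventh lowest interactions were -1.05 and -1.04, and the tenth and eleventh highest were 0.81 and 0.78. Of 72 called genes examined one by one, 25 lost the call in 2 to 10 of the 12 fits with 1 library left out. The 72 include the genes named only because they held in every fit, which could not lose a call. The share of 25 in 72 therefore understates the loss among genes named by rule. Leaving out floxed IL-33 library 3 lost all 25 (adjusted p up to 0.179), and leaving out unstimulated wild-type library 1 lost 24 (up to 0.179), with Cpt1a the exception. The number lost was 23 without unstimulated wild-type library 3 (up to 0.142), 23 without wild-type IL-33 library 2 (up to 0.158) and 21 without wild-type IL-33 library 3 (up to 0.144). It was 21 without floxed IL-33 library 1 (up to 0.0974), and 17, 21 and 16 without unstimulated floxed library 1, 2 or 3 (up to 0.165, 0.112 and 0.137). The remaining libraries lost 2 to 5. Of the 25, 14 also lost the call in at least 1 fit other than these 12. With limma-voom 7 were lost, and 6 in the fit of the 4 groups alone, which left out the libraries of the other groups.

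The IL-33 receptor gene itself was among the stable differences. In floxed cells Il1rl1 stood at 7.67, 5.48 and 6.18 CPM with IL-33 and at 13.7, 16.8 and 13.6 CPM without. Wild-type libraries had 15.8, 16.9 and 14.6 CPM of Il1rl1 with IL-33 and 14.6, 17.3 and 15.1 CPM without. The 3 floxed IL-33 libraries lay below the other 9, which overlapped. IL-33 lowered Il1rl1 2.27-fold in floxed cells (adjusted p = 1.8e-06) and left it near its starting level in wild-type cells (log2 change 0.01 ± 0.14, adjusted p = 0.97). The interaction was -1.19 ± 0.21, adjusted p = 0.00405, and it was called in every fit tried. Without cytokine the genotypes were not distinguished (floxed minus wild type -0.09 ± 0.14, adjusted p = 0.747). Counts per gene do not separate the membrane-bound form of ST2 from its soluble form.

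Of 13 tested genes of the IL-33 receptor and its signalling, edgeR and limma-voom called Il1rl1 alone and DESeq2 called Il1rl1 and Myd88, with 7 interactions positive, 6 negative and a median of 0.01, against a median of -0.01 over all autosomal genes. Of all 13908 autosomal genes edgeR called 1.24%, and 7269 had negative interactions. The shared receptor chain Il1rap (-0.03), the inhibitory receptor gene Sigirr (-0.03) and the kinase gene Irak4 (-0.02) had interactions near 0. Myd88, the adaptor, had an interaction of 0.25, with log2 responses of 0.67 in floxed cells and 0.43 in wild-type cells. DESeq2 called it (adjusted p = 0.035) and edgeR did not (adjusted p = 0.0952). Irak2 (0.17) was called by none of the 3 tools. Of GATA factors and partners 3 of 8 could be tested (Zfpm1, Gata3 and Gata2), none was called by edgeR, DESeq2 or limma-voom, and none had an unadjusted p under 0.05. Gata4, Gata5 and Gata6 had 0 counts in all 12 libraries.

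Il1rl1 had the lowest interaction of the IL-33 receptor and signalling list, and AGATAA is one of the sequences that GATA factors bind. RefSeq promoter windows (GRCm38.p6, 250 bases before to 50 after a start) were therefore read for Il1rl1. For comparison they were read for Clec4b1 and Slc22a4, the genes with the most negative interactions by the naming rule. Capitals mark AGATAA or its reverse complement TTATCT. Il1rl1 has a pair of annotated starts, and each window holds 1 match, beginning at -217 and at -103 from the start. The first lies at chr1:40429320-40429619 and the second at chr1:40439379-40439678, both on the plus strand. The window of Clec4b1 (chr6:123049712-123050011, plus strand) and that of Slc22a4 (chr11:54028055-54028354, minus strand) hold none.
Il1rl1 first start: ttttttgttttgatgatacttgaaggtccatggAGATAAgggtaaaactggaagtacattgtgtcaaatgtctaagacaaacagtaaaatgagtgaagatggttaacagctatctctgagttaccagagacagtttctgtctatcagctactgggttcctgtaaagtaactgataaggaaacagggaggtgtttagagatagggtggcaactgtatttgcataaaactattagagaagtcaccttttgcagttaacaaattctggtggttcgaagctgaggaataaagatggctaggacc
Il1rl1 second start: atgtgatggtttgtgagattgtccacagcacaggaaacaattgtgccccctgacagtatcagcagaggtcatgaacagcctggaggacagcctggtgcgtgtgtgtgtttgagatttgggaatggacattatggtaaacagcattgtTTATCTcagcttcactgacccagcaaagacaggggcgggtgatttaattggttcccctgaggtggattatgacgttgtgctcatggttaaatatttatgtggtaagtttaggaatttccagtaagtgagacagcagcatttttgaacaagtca
Clec4b1: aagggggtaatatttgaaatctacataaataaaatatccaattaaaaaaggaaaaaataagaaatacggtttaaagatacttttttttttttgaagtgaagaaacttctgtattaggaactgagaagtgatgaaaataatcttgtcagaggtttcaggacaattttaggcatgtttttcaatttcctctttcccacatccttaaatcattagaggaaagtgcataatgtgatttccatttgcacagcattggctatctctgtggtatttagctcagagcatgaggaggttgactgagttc
Slc22a4: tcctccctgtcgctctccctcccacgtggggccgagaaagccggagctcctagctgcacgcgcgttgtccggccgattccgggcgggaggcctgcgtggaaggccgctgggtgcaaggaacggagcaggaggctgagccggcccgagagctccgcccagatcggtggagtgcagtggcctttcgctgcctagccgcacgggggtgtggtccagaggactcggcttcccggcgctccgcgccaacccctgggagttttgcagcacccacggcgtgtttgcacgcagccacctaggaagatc
The motif was searched on both strands, and matches on opposite strands cannot overlap. It occurred in 11.2% of all 32851 windows, and 747 of 9565 tested autosomal genes with a window had one (7.81%). Among called genes it was in 4 of 78 with a lower interaction (5.13%) and in 1 of 59 with a higher one (1.69%). A match is a run of letters and was not tested as a binding site. Other sequences that GATA factors bind were not searched, so a window without AGATAA may still hold one.

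Arg1 (chromosome 10, 24915221 to 24927484), which encodes arginase 1, reached a much lower level under IL-33 in floxed cells, though its interaction was not called. The floxed libraries held 47.2, 45.6 and 40.2 CPM of Arg1 with IL-33 and 0.0203, 0.382 and 0.32 CPM without. In wild-type cells Arg1 reached 319.9, 362 and 439 CPM with IL-33 and 0.273, 0.519 and 0.351 CPM without. The IL-33 libraries of the genotypes did not overlap, and the unstimulated libraries overlapped. IL-33 raised Arg1 192-fold in floxed cells and 969-fold in wild-type cells. Under IL-33 the difference between genotypes was -3.07 ± 0.17 (adjusted p = 3.8e-11). The interaction was -2.34 ± 0.79, adjusted p = 0.171. The unstimulated libraries held 1, 16 and 13 counts in floxed cells and 10, 20 and 14 counts in wild-type cells. The interaction was called only in the fit with no expression filter, and its adjusted p ranged from 0.0706 to 0.528 with 1 library left out.

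Of 20 genes of alternative activation 2 were called, both lower (Ear2 and Mgl2), DESeq2 called 3 and limma-voom 0, 17 had negative interactions, and the median was -0.39. At an unadjusted p under 0.05, 9 were lower and 0 higher, against 7.18% lower and 6.47% higher of all autosomal genes. Of those 13908 genes edgeR called 1.24%, and 7269 had negative interactions. Mgl2 stood at 152, 119 and 146 CPM in the floxed IL-33 libraries and at 7.68, 6.82 and 8.55 CPM in the unstimulated floxed libraries. In the wild type Mgl2 stood at 319.7, 271 and 247 CPM with IL-33 and at 8.91, 10.6 and 8.52 CPM without. Mgl2 encodes the galactose-type lectin CD301b, and its level under IL-33 lay lower in all 3 floxed libraries than in any wild-type library. IL-33 raised it 18.1-fold in floxed cells and 29.9-fold in wild-type cells (interaction -0.73 ± 0.18, adjusted p = 0.0487, lost in 10 of the 12 fits with 1 library left out, adjusted p up to 0.149, and in limma-voom, adjusted p = 0.187). Ear2, an eosinophil-associated ribonuclease gene of a family of close copies whose reads may be shared, averaged 2.6 ± 0.141 CPM with IL-33 and 0.57 ± 0.335 CPM without in floxed cells, against 2.71 ± 0.43 and 0.146 ± 0.0478 CPM in wild-type cells (interaction -2.03 ± 0.48, adjusted p = 0.0402, lost in 9 of the 12 fits with 1 library left out, adjusted p up to 0.165, and in limma-voom, the fit of the 4 groups alone and the replicate-block fit of the 4 groups, adjusted p = 0.264, 0.0974 and 0.104). Its IL-33 levels overlapped between genotypes, and its unstimulated level was higher in floxed cells. Mrc1, the mannose receptor gene, had an interaction of -0.64 with responses of 1.18 in floxed cells and 1.82 in wild-type cells, and was called by DESeq2 (adjusted p = 0.0492) and not by edgeR or limma-voom. Chil3, the chitinase-like protein Ym1, rose 1.63-fold in floxed cells and 1.7-fold in wild-type cells (interaction -0.06 ± 0.16, adjusted p = 0.93). Its level was higher in floxed than in wild-type cells, 1.86-fold without cytokine (adjusted p = 3.72e-05) and 1.79-fold under IL-33 (adjusted p = 1.69e-05). On the CPM scale the Chil3 interaction had the other sign, 4.07 CPM. Retnla held 5, 8 and 10 counts in floxed IL-33 libraries and 0, 0 and 4 in unstimulated ones, against 36, 18 and 3 in wild-type IL-33 libraries and 0, 1 and 2 in unstimulated ones, too few to resolve an interaction (adjusted p = 0.849).

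Slc7a2 was called by edgeR and is described with Gatm, which was on no list and was chosen after its values were seen. Slc7a2, the inducible cationic amino acid transporter that imports arginine, rose 7.62-fold in floxed cells and 16.1-fold in wild-type cells. In floxed cells Slc7a2 stood at 35.0, 24.3 and 26.3 CPM with IL-33 and at 3.5, 4.58 and 3.18 CPM without. Wild-type libraries had 43.3, 35.3 and 51.5 CPM of Slc7a2 with IL-33 and 2.43, 2.72 and 2.91 CPM without. The IL-33 libraries of the genotypes did not overlap, and the unstimulated floxed libraries lay above the unstimulated wild-type ones. The interaction was -1.08 ± 0.24, adjusted p = 0.0315, lost in 6 of the 12 fits with 1 library left out, adjusted p up to 0.11, and in limma-voom, adjusted p = 0.239. Gatm encodes the amidinotransferase that uses arginine and glycine in the first step of creatine synthesis. Gatm measured 69.9, 80.4 and 65.2 CPM in floxed cells with IL-33 and 69.0, 67.9 and 67.0 CPM without, against 109, 121 and 115 CPM in wild-type cells with IL-33 and 56.3, 60.4 and 54.9 CPM without. IL-33 raised Gatm in wild-type cells (2.01-fold, adjusted p = 7.01e-11) and the floxed response was 0.08 ± 0.07 (adjusted p = 0.396), an interaction of -0.93 ± 0.09, adjusted p = 3.01e-05, called in every fit. In the list of arginine and polyamine genes Slc7a2 was the 1 call among 16, with 8 interactions positive and 8 negative. Over all autosomal genes edgeR called 1.24%.

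Ccr3, the eotaxin receptor gene (chromosome 9, 124021972 to 124031689), had one of the larger stable differences. The floxed libraries held 5.79, 5.9 and 5.23 CPM of Ccr3 with IL-33 and 3.08, 3.67 and 3.13 CPM without. In wild-type cells Ccr3 reached 15.3, 16.2 and 17.4 CPM with IL-33 and 3.25, 4.15 and 3.18 CPM without. Wild-type IL-33 libraries lay far above the other 9, and floxed IL-33 libraries lay between these and the unstimulated ones. IL-33 raised Ccr3 1.71-fold in floxed cells and 4.61-fold in wild-type cells (interaction -1.43 ± 0.22, adjusted p = 0.00123, called in every fit). Ccr3 is also an eosinophil marker. The 7 eosinophil markers summed to 23.9 to 25.4 CPM in floxed IL-33 libraries and 15.2 to 20.4 CPM in unstimulated floxed libraries, against 24.6 to 27.9 and 9.62 to 14.7 CPM in wild-type libraries with and without IL-33. Of all 13908 autosomal genes edgeR called 1.24%, DESeq2 2.58% and limma-voom 1.19%, and 7269 had negative interactions. Of 10 tested chemokine receptor genes edgeR called 2 and DESeq2 and limma-voom 3, all lower, and 8 interactions were negative (median -0.35). The other edgeR call was Ccr2, the monocyte chemokine receptor gene, with 292 ± 3.58 CPM with IL-33 and 283 ± 9.94 CPM without in floxed cells, against 298 ± 15.01 and 226 ± 15.2 CPM in wild-type cells (interaction -0.35 ± 0.09, adjusted p = 0.0464, lost in 10 of the 12 fits with 1 library left out, adjusted p up to 0.179). Cx3cr1, whose promoter drives the Cre, fell 2.65-fold with IL-33 in floxed cells and 1.77-fold in wild-type cells. Cx3cr1 measured 29.2, 22.1 and 20.4 CPM in floxed cells with IL-33 and 63.0, 62.0 and 65.2 CPM without, against 27.3, 26.7 and 32.5 CPM in wild-type cells with IL-33 and 50.0, 50.0 and 53.1 CPM without. The IL-33 libraries overlapped between genotypes, and the unstimulated floxed libraries were above the wild-type ones. The interaction of Cx3cr1 was -0.58 ± 0.16, adjusted p = 0.0774, and it was called in 6 of the other fits, among them DESeq2, limma-voom and the fit without floxed IL-33 library 1 (-0.75, adjusted p = 0.0138).

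Tfrc, Hfe, Slc30a4 and Slc31a2 were 4 of the lower genes called in every fit. They were chosen after their values were seen, and no list of metal-handling genes was counted. Tfrc encodes the transferrin receptor. Tfrc stood at 49.2, 53.1 and 49.9 CPM in the floxed IL-33 libraries and at 23.6, 26.5 and 24.7 CPM in the unstimulated floxed libraries. In the wild type Tfrc stood at 80.9, 98.7 and 105 CPM with IL-33 and at 22.6, 24.4 and 25.7 CPM without. The unstimulated libraries of the genotypes overlapped, and the IL-33 libraries did not. IL-33 raised Tfrc 2.04-fold in floxed cells and 3.91-fold in wild-type cells (interaction -0.94 ± 0.12, adjusted p = 0.000135). Hfe, whose product binds the transferrin receptor, averaged 121 ± 5.6 CPM with IL-33 and 91.3 ± 6.67 CPM without in floxed cells, against 208 ± 14.998 and 95.7 ± 4.97 CPM in wild-type cells (-0.72 ± 0.09, adjusted p = 9.03e-05). Slc30a4, a zinc transporter gene, rose 1.63-fold in floxed cells and 2.81-fold in wild-type cells (-0.79 ± 0.09, adjusted p = 8.46e-05). Slc31a2, a copper transporter gene, rose 2.26-fold in floxed cells and 3.14-fold in wild-type cells (-0.47 ± 0.08, adjusted p = 0.00299).

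Ptgs1, Abcd2, Sdc4, Fcgrt, Prnp and Snn, chosen in the same way, were also lower in every fit. Ptgs1 encodes cyclooxygenase 1. In floxed cells Ptgs1 stood at 55.0, 59.8 and 52.9 CPM with IL-33 and at 23.1, 25.8 and 24.1 CPM without. Wild-type libraries had 80.1, 88.0 and 93.7 CPM of Ptgs1 with IL-33 and 19.6, 20.3 and 19.2 CPM without. IL-33 levels did not overlap between genotypes, and the response was 2.3-fold in floxed cells and 4.43-fold in wild-type cells (-0.94 ± 0.11, adjusted p = 6.74e-05). Abcd2, which carries very long chain fatty acids into peroxisomes, was called for a rise with IL-33 in wild-type cells and not in floxed cells. The floxed libraries held 42.9, 47.1 and 41.6 CPM of Abcd2 with IL-33 and 44.0, 42.9 and 44.9 CPM without. In wild-type cells Abcd2 reached 74.8, 82.3 and 87.7 CPM with IL-33 and 41.2, 47.8 and 47.2 CPM without. All floxed libraries and the unstimulated wild-type libraries shared one range, and the wild-type IL-33 libraries lay above it. The interaction was -0.85 ± 0.09, adjusted p = 3.56e-05. Sdc4, a heparan sulfate proteoglycan gene, averaged 142 ± 9.06 CPM with IL-33 and 149 ± 7.63 CPM without in floxed cells, against 241 ± 12.7 and 159 ± 0.533 CPM in wild-type cells (-0.66 ± 0.07, adjusted p = 5.95e-05). Fcgrt, the neonatal Fc receptor gene, averaged 120.2 ± 16.6 CPM with IL-33 and 123.5 ± 4.74 CPM without in floxed cells, against 219 ± 17.1 and 148 ± 10.4 CPM in wild-type cells (-0.61 ± 0.11, adjusted p = 0.0055). Both rose with IL-33 in wild-type cells and did not pass in floxed cells (adjusted p = 0.375 and 0.754). The prion protein gene Prnp did likewise, at 1.49-fold in wild-type cells (-0.51 ± 0.08, adjusted p = 0.00152). The same was true of Snn, at 2.53-fold in wild-type cells (-1.44 ± 0.27, adjusted p = 0.00773).

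**Figure D2:**
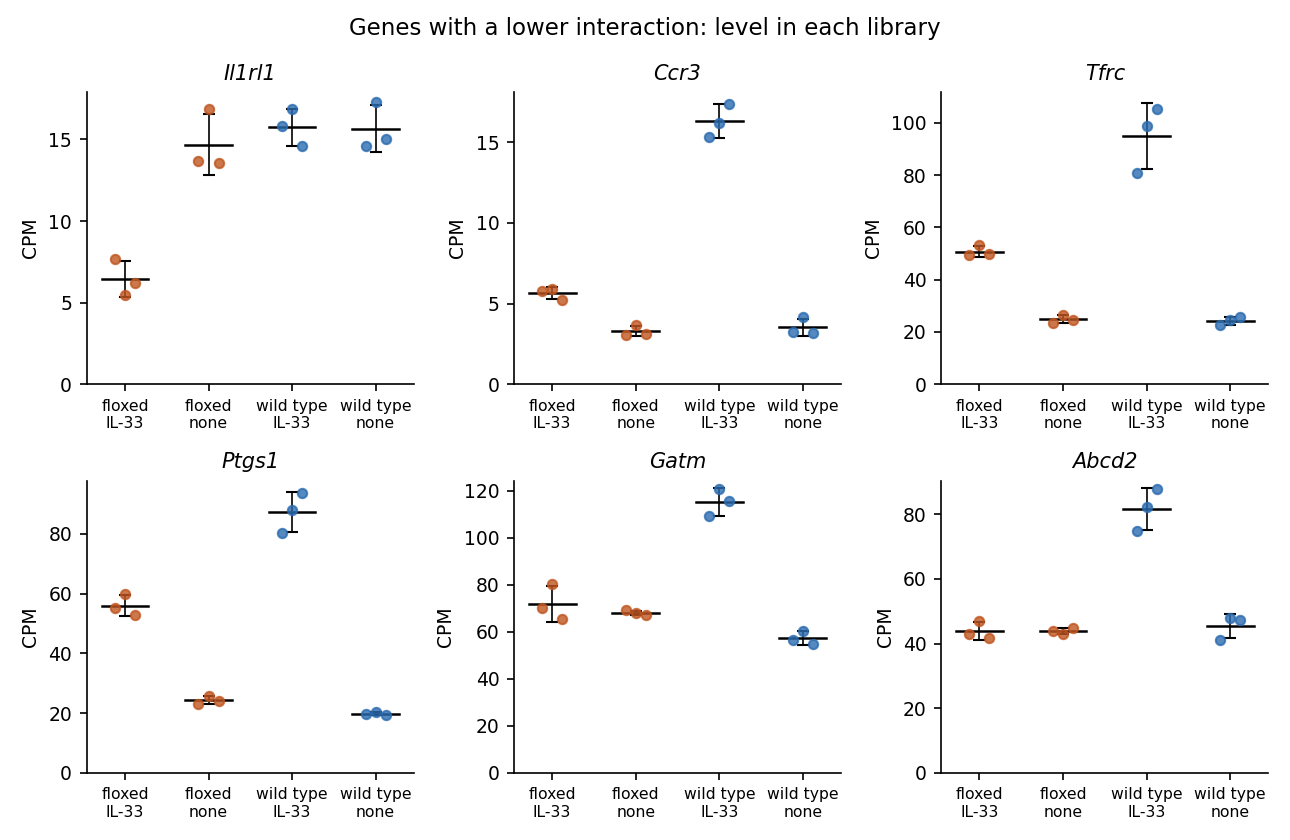
CPM of 6 genes with a called lower interaction in the 12 libraries, in the order floxed IL-33, floxed without cytokine, wild-type IL-33 and wild type without cytokine. Points are libraries, long bars means and whiskers standard deviations (n = 3); Il1rl1 is low only in the floxed IL-33 group, and the other 5 are highest in the wild-type IL-33 group.

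A further set rose in both genotypes and less in floxed cells. Igf1, a growth factor gene of high level, averaged 793 ± 24.8 CPM with IL-33 and 373 ± 3.59 CPM without in floxed cells, against 1093 ± 39.7 and 404 ± 5.83 CPM in wild-type cells, with rises of 2.13-fold in floxed cells and 2.71-fold in wild-type cells (-0.35 ± 0.06, adjusted p = 0.00283). Fchsd2, which encodes a membrane-bending protein of endocytosis, rose 1.9-fold in floxed cells and 3.27-fold in wild-type cells (-0.79 ± 0.12, adjusted p = 0.00119). The clathrin adaptor subunit gene Ap2m1 rose 1.43-fold and 1.89-fold in the same order (-0.39 ± 0.06, adjusted p = 0.00182). The retromer-associated sorting nexin gene Snx6 rose 1.71-fold in floxed cells and 2.38-fold in wild-type cells (-0.47 ± 0.07, adjusted p = 0.000983). Jak2, a cytokine receptor kinase gene, averaged 60.6 ± 1.56 CPM with IL-33 and 47.9 ± 1.62 CPM without in floxed cells, against 76.0 ± 4.5 and 45.7 ± 1.68 CPM in wild-type cells (-0.39 ± 0.07, adjusted p = 0.00528). Rnf19b and Dse, which encode a ubiquitin ligase and the dermatan sulfate epimerase, had interactions of -0.48 and -0.47 (adjusted p = 0.000983 and 0.000135). All of these held in every fit, which is why all but Igf1 were named. Rgl1, a Ral exchange factor gene, rose 3.24-fold in floxed cells and 6.04-fold in wild-type cells, and its IL-33 means were 83.5 ± 4.12 CPM in floxed cells and 94.7 ± 2.91 CPM in wild-type cells (-0.90 ± 0.11, adjusted p = 0.000135).

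Some genes moved in opposite directions. Of the 172 called genes, 14 had both responses called with opposite signs. Clec4b1, a C-type lectin receptor gene of myeloid cells (chromosome 6, 123049962 to 123071555), had the most negative interaction by the naming rule. Clec4b1 stood at 2.99, 2.97 and 2.69 CPM in the floxed IL-33 libraries and at 7.21, 8.27 and 6.68 CPM in the unstimulated floxed libraries. In the wild type Clec4b1 stood at 3.36, 3.49 and 6.02 CPM with IL-33 and at 2.19, 3.42 and 3.08 CPM without. The unstimulated floxed libraries were above all others, and the remaining groups overlapped in part. IL-33 lowered Clec4b1 2.56-fold in floxed cells (adjusted p = 1.87e-05) and raised it 1.47-fold in wild-type cells (adjusted p = 0.0446), an interaction of -1.91 ± 0.30, adjusted p = 0.00142, called in every fit. Gpr65, a proton-sensing receptor gene that shares 24.7% of its exon bases with a neighbour, averaged 31.6 ± 4.66 CPM with IL-33 and 42.4 ± 1.37 CPM without in floxed cells, against 50.0 ± 2.55 and 37.0 ± 3.8 CPM in wild-type cells (-0.85 ± 0.13, adjusted p = 0.00119). Ms4a7, a membrane protein gene of macrophages, averaged 269 ± 17.8 CPM with IL-33 and 373 ± 23.5 CPM without in floxed cells, against 345 ± 34.9 and 305 ± 15.6 CPM in wild-type cells (-0.65 ± 0.09, adjusted p = 0.000792). Nme4, a mitochondrial nucleoside diphosphate kinase gene, averaged 9.94 ± 0.687 CPM with IL-33 and 12.96 ± 1.2 CPM without in floxed cells, against 16.5 ± 0.471 and 12.9 ± 0.209 CPM in wild-type cells (-0.74 ± 0.13, adjusted p = 0.00528). The Src-family kinase gene Fyn fell 1.1-fold in floxed cells and rose 1.34-fold in wild-type cells (-0.56 ± 0.07, adjusted p = 9.03e-05). Gpr183, the oxysterol receptor gene, fell 1.66-fold in floxed cells, while its wild-type response did not pass (0.20 ± 0.10, adjusted p = 0.129; interaction -0.93 ± 0.14, adjusted p = 0.00119).

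Neighbouring lectin genes on chromosome 6 differed in direction. Clec4a3 (chromosome 6, 122952515 to 122969875) rose 1.31-fold in floxed cells and 1.97-fold in wild-type cells (-0.58 ± 0.10, adjusted p = 0.00541). It was named because it was called in every fit. Clec4n (chromosome 6, 123229843 to 123247021), which encodes the fungal receptor Dectin-2, rose more in floxed cells. Clec4n measured 144, 126 and 149.9 CPM in floxed cells with IL-33 and 4.29, 4.24 and 3.6 CPM without, against 64.8, 78.9 and 102 CPM in wild-type cells with IL-33 and 4.65, 4.49 and 4.86 CPM without. The IL-33 libraries did not overlap between genotypes, and the response was 34.5-fold in floxed cells and 17.5-fold in wild-type cells (0.98 ± 0.22, adjusted p = 0.0296, lost in 7 of the 12 fits with 1 library left out, adjusted p up to 0.083, and in limma-voom, adjusted p = 0.138). Members of this lectin cluster resemble each other in sequence, so their counts may share reads.

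Several lower interactions went with a floxed level that was already higher without cytokine. Floxed and wild-type cells differed in 1357 genes without cytokine (9.76%) and in 1566 under IL-33 (11.3%). The first count was 622 without unstimulated floxed library 2 and 741 or 772 without unstimulated wild-type library 1 or 3. The second was 1033 without floxed IL-33 library 3 and 960.0 without wild-type IL-33 library 2. Slc22a4, an organic cation and ergothioneine transporter gene (chromosome 11, 53983123 to 54028090), was the clearest. In floxed cells Slc22a4 stood at 40.1, 49.7 and 44.8 CPM with IL-33 and at 36.8, 39.5 and 37.2 CPM without. Wild-type libraries had 3.75, 4.25 and 4.79 CPM of Slc22a4 with IL-33 and 1.23, 0.7 and 1.18 CPM without. Every floxed library exceeded every wild-type library. IL-33 raised Slc22a4 4.11-fold in wild-type cells (adjusted p = 5.71e-07), and the floxed response was 0.25 ± 0.16 (adjusted p = 0.255). The interaction was -1.79 ± 0.29, adjusted p = 0.00229, called in every fit, but on the scale of CPM the rise was larger in floxed cells by 3.82 CPM, the opposite direction. Tmem26, a low membrane protein gene, averaged 1.23 ± 0.149 CPM with IL-33 and 0.737 ± 0.174 CPM without in floxed cells, against 1.59 ± 0.086 and 0.228 ± 0.0864 CPM in wild-type cells (-2.05 ± 0.30, adjusted p = 0.000792, named because it was called in every fit). Mefv, which encodes the inflammasome sensor pyrin, averaged 20.4 ± 2.7 CPM with IL-33 and 8.74 ± 0.779 CPM without in floxed cells, against 16.7 ± 3.27 and 3.4 ± 0.409 CPM in wild-type cells (-1.08 ± 0.24, adjusted p = 0.0296, lost in 8 of the 12 fits with 1 library left out, adjusted p up to 0.11). Under IL-33 the genotype difference did not pass for Tmem26, whose IL-33 libraries did not overlap (difference -0.36 ± 0.15, adjusted p = 0.146) or Mefv (0.28 ± 0.16, 0.281).

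MHC class II genes, which present antigen to helper T cells, were higher in sum in floxed cells without cytokine. The 10 genes summed to 3288 to 3731 CPM in floxed IL-33 libraries and 2753 to 3134 CPM in unstimulated floxed libraries, against 2319.6 to 3130.0 and 1347 to 1747 CPM in wild-type libraries with and without IL-33. All 10 interactions were negative, with a median of -0.55, and 1 of 10 was called by edgeR and limma-voom, H2-Eb1. At an unadjusted p under 0.05, 7 were lower, against 7.18% of all autosomal genes. Among all 13908 of these, edgeR called 1.24% and negative interactions numbered 7269. The floxed libraries held 272, 302 and 267 CPM of H2-Eb1 with IL-33 and 264, 248 and 284 CPM without. In wild-type cells H2-Eb1 reached 177, 211 and 239 CPM with IL-33 and 105, 145 and 136 CPM without. The floxed libraries lay above all wild-type libraries, with and without IL-33. IL-33 raised H2-Eb1 1.62-fold in wild-type cells (adjusted p = 1.87e-05), and the floxed response was 0.08 ± 0.11 (adjusted p = 0.613; interaction -0.62 ± 0.15, adjusted p = 0.046, lost in 9 of the 12 fits with 1 library left out, adjusted p up to 0.152, and in the fit of the 4 groups alone, adjusted p = 0.0703). Cd74 and H2-Aa, which encode the invariant chain and a class II alpha chain, had interactions of -0.55 and -0.56. DESeq2 called both (adjusted p = 0.0145 and 0.0181), and edgeR and limma-voom did not. The 10 dendritic cell markers were, in sum, also higher in floxed than in wild-type libraries of the same treatment. They summed to 227 to 263 CPM in floxed IL-33 libraries and 107 to 175 CPM in unstimulated floxed libraries, against 140.3 to 222 and 53.5 to 101 CPM in wild-type libraries with and without IL-33, and their part in the MHC class II values was not tested. Bulk RNA cannot tell fewer cells of a type from less RNA per cell.

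**Figure D3:**
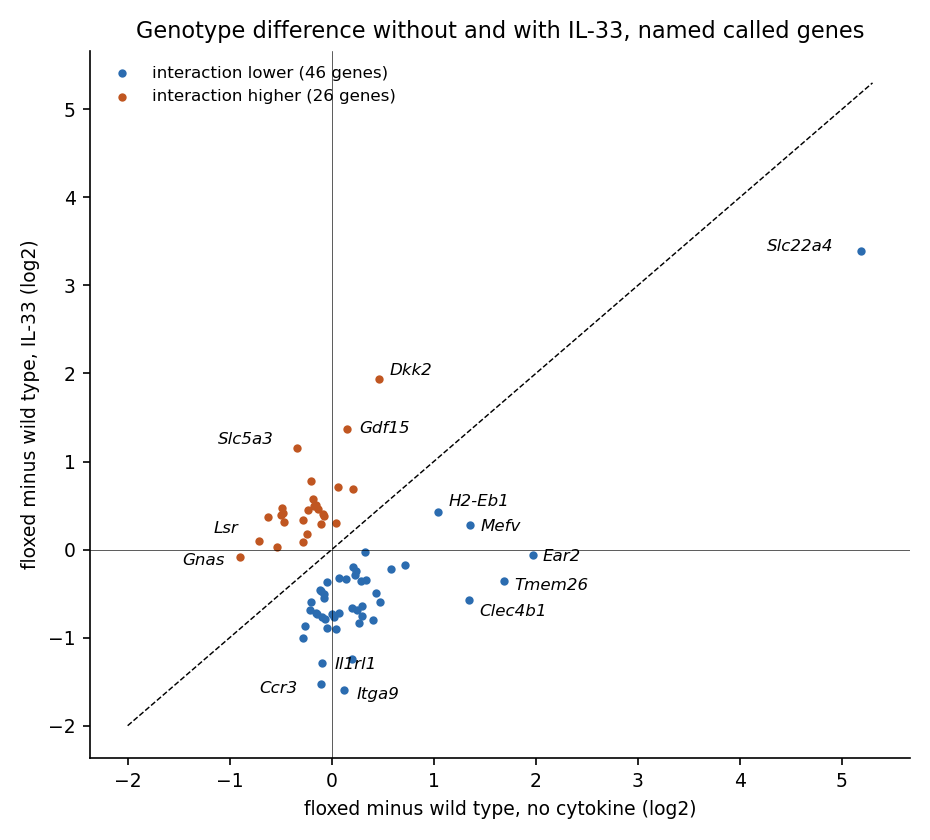
Floxed minus wild-type difference (log2) under IL-33 (vertical axis) against that without cytokine (horizontal axis) for the 72 named called genes, 46 with a lower interaction (blue) and 26 with a higher one (orange). The dashed line marks equal differences; Il1rl1, Ccr3 and Itga9 passed for a genotype difference under IL-33 and not without, while Slc22a4, Mefv and H2-Eb1 lie at a higher floxed level already without cytokine.

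The remaining genes among the 10 lowest interactions were Itga9, Tspyl4, Tmem176a and Ms4a4a. Itga9, the integrin alpha 9 gene, averaged 2.42 ± 0.934 CPM with IL-33 and 5.49 ± 0.669 CPM without in floxed cells, against 7.3 ± 2.73 and 5.05 ± 0.634 CPM in wild-type cells (-1.71 ± 0.40, adjusted p = 0.0366, lost in 9 of the 12 fits with 1 library left out, adjusted p up to 0.126, and in limma-voom, adjusted p = 0.065). Tspyl4, of a nucleosome assembly protein family, averaged 2.31 ± 0.568 CPM with IL-33 and 6.1 ± 0.912 CPM without in floxed cells, against 4.01 ± 0.668 and 4.59 ± 1.12 CPM in wild-type cells (-1.21 ± 0.27, adjusted p = 0.0315, lost in 8 of the 12 fits with 1 library left out, adjusted p up to 0.114, and in the fit of the 4 groups alone, adjusted p = 0.0588). It shares 37.8% of its exon bases with another annotated gene, which makes its counts uncertain. Tmem176a, a membrane protein gene of myeloid cells, rose 2.25-fold in floxed cells and 4.81-fold in wild-type cells (-1.10 ± 0.27, adjusted p = 0.0497, lost in 9 of the 12 fits with 1 library left out, adjusted p up to 0.165, and in upper-quartile normalization, DESeq2, the stricter filter and the fit without X and Y genes, adjusted p = 0.0509, 0.0719, 0.0521 and 0.0505). Ms4a4a, a tetraspan gene of alternatively activated macrophages, rose 3.57-fold in floxed cells and 7.4-fold in wild-type cells (-1.05 ± 0.22, adjusted p = 0.0262, lost in 8 of the 12 fits with 1 library left out, adjusted p up to 0.0911). Ms4a4a measured 89.5, 107 and 88.8 CPM in floxed cells with IL-33 and 27.8, 23.9 and 28.01 CPM without, against 124, 174 and 184 CPM in wild-type cells with IL-33 and 20.4, 22.1 and 22.5 CPM without. Its IL-33 libraries did not overlap between genotypes.

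Higher interactions numbered 76 against 96 lower with edgeR, but 189 against 170 with DESeq2, 178 against 169 with the replicate block, and 144 against 122 without wild-type IL-33 library 1. Dkk2, a secreted Wnt antagonist gene (chromosome 3, 132085292 to 132180304), fell 5.67-fold in floxed cells and 15.8-fold in wild-type cells. Dkk2 stood at 3.93, 3.51 and 3.92 CPM in the floxed IL-33 libraries and at 20.1, 20.9 and 23.5 CPM in the unstimulated floxed libraries. In the wild type Dkk2 stood at 0.793, 1.45 and 0.676 CPM with IL-33 and at 15.4, 15.7 and 15.7 CPM without. Every floxed library exceeded the wild-type libraries of the same treatment. The interaction was 1.48 ± 0.25, adjusted p = 0.00284, called in every fit, but on the CPM scale the fall was larger in floxed cells (a difference of -3.09 CPM). Tusc1, a candidate tumour suppressor gene, averaged 24.4 ± 5.64 CPM with IL-33 and 37.7 ± 2.12 CPM without in floxed cells, against 18.9 ± 0.897 and 58.0 ± 3.23 CPM in wild-type cells (0.99 ± 0.19, adjusted p = 0.0121). Rps6ka2, a ribosomal S6 kinase gene, averaged 34.3 ± 2.02 CPM with IL-33 and 49.5 ± 1.72 CPM without in floxed cells, against 20.996 ± 2.05 and 47.3 ± 3.96 CPM in wild-type cells (0.65 ± 0.10, adjusted p = 0.0017). Fnip2, which encodes a partner of folliculin, fell 1.25-fold in floxed cells and 1.72-fold in wild-type cells (0.46 ± 0.09, adjusted p = 0.0157). Vwf, the von Willebrand factor gene, fell 1.57-fold in wild-type cells, and its floxed response did not pass (-0.17 ± 0.07, adjusted p = 0.0537; interaction 0.49 ± 0.09, adjusted p = 0.0107). Atf6, a sensor gene of the unfolded protein response, fell 1.29-fold in wild-type cells and averaged 164 ± 5.3 and 164 ± 4.92 CPM in floxed cells with and without IL-33 (0.36 ± 0.06, adjusted p = 0.00449). Each of these calls held in every fit, which is why all but Dkk2 and Tusc1 were named.

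Others with a higher interaction rose more in floxed cells. Spp1, which encodes osteopontin (chromosome 5, 104435118 to 104441050), is a secreted matrix protein gene of high level. In floxed cells Spp1 stood at 3719, 3263 and 3739 CPM with IL-33 and at 1822, 1745 and 1688 CPM without. Wild-type libraries had 2882, 2727 and 3036 CPM of Spp1 with IL-33 and 2683, 2446 and 2151 CPM without. Floxed libraries were lowest without cytokine and highest with IL-33, and the wild-type IL-33 and unstimulated libraries lay between them. Spp1 rose 2.04-fold in floxed cells and 1.19-fold in wild-type cells (0.78 ± 0.13, adjusted p = 0.00284, called in every fit), with 18.8% of its exon bases shared with another annotated gene. Wfdc17, a secreted protease inhibitor-like gene, rose 3.51-fold in floxed cells and 2.33-fold in wild-type cells (0.59 ± 0.12, adjusted p = 0.0163). Slc1a5, the glutamine transporter gene, rose 1.33-fold in floxed cells (interaction 0.49 ± 0.09, adjusted p = 0.0064), and its wild-type response did not pass (adjusted p = 0.409). Coro2a, an actin-binding coronin gene, rose 1.71-fold in floxed cells and 1.3-fold in wild-type cells (0.40 ± 0.07, adjusted p = 0.00845). The transcriptional repressor gene Bhlhe41, with 19.0% of exon bases shared, averaged 94.6 ± 9.88 CPM with IL-33 and 78.1 ± 4.1 CPM without in floxed cells, against 63.4 ± 8.16 and 88.5 ± 7.79 CPM in wild-type cells (0.76 ± 0.13, adjusted p = 0.00284). The wild-type fall and the floxed rise of Bhlhe41 were both called. The adaptor gene Sntb2 averaged 33.4 ± 1.38 CPM with IL-33 and 25.7 ± 1.18 CPM without in floxed cells, against 26.5 ± 1.39 and 31.3 ± 3.002 CPM in wild-type cells (0.62 ± 0.11, adjusted p = 0.00423). Tmem154, Rttn, C77080 and Tesk1 completed the stable higher genes, with interactions of 0.67, 0.69, 0.66 and 0.56 (adjusted p = 0.00172, 0.00166, 0.00813 and 0.0116).

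**Figure D4:**
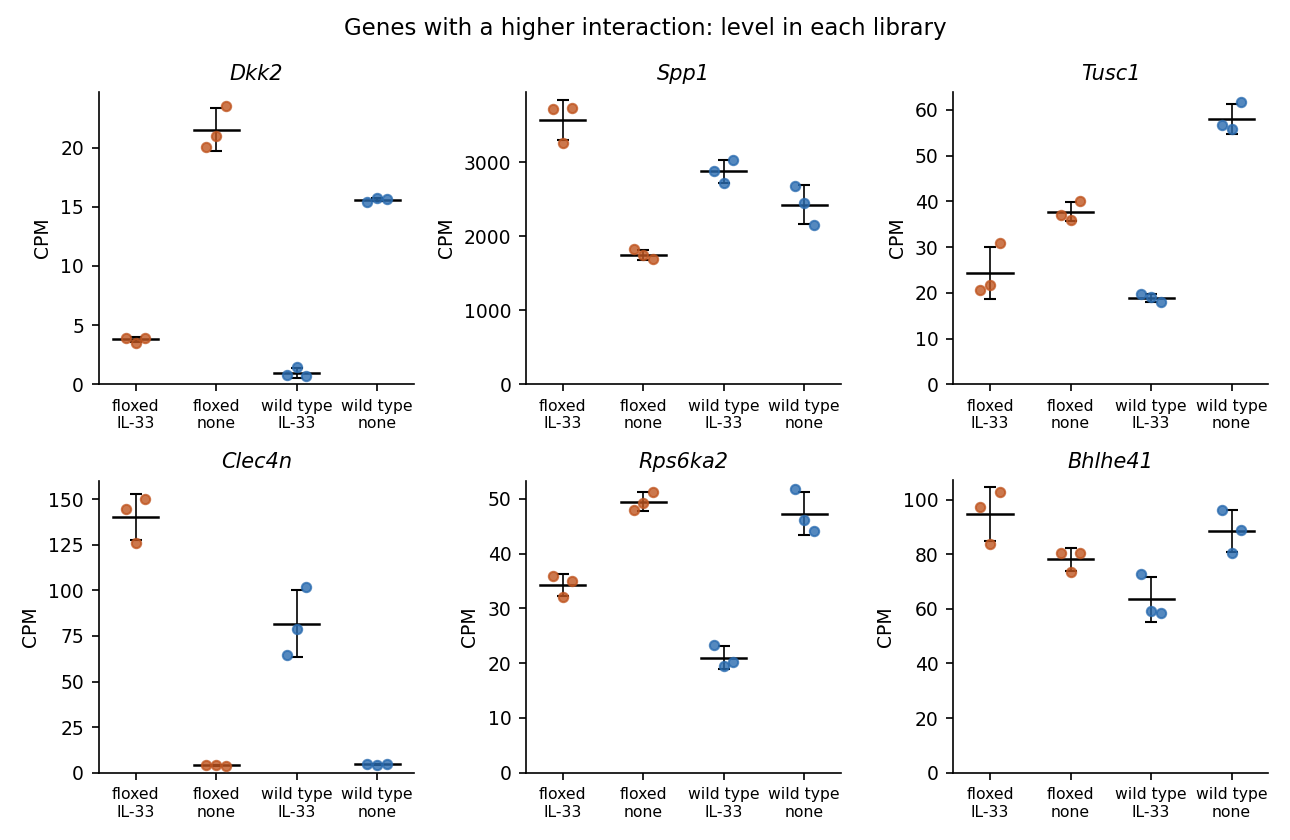
CPM of 6 genes with a called higher interaction in the 12 libraries, in the order floxed IL-33, floxed without cytokine, wild-type IL-33 and wild type without cytokine. Points are libraries, long bars means and whiskers standard deviations (n = 3); Dkk2, Tusc1 and Rps6ka2 fell less in floxed cells on the log2 scale, and Spp1 and Clec4n rose more.

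The rest of the 10 highest interactions were less stable. Slc5a3, the myo-inositol transporter gene, had the highest. Slc5a3 measured 89.4, 74.7 and 117 CPM in floxed cells with IL-33 and 61.7, 55.2 and 77.5 CPM without, against 52.4, 37.3 and 36.5 CPM in wild-type cells with IL-33 and 91.1, 60.0 and 95.0 CPM without. The IL-33 libraries of the genotypes did not overlap (1.497 ± 0.33, adjusted p = 0.0284, lost in 8 of the 12 fits with 1 library left out, adjusted p up to 0.1). Mrps6, a mitochondrial ribosomal protein gene at the same place, shares 19.9% of its exon bases with Slc5a3 and another annotated gene, so the pair may count the same reads (0.96 ± 0.22, adjusted p = 0.0381, lost in 7 of the 12 fits with 1 library left out, adjusted p up to 0.116). Gdf15, a stress-induced cytokine gene, averaged 42.6 ± 11.4 CPM with IL-33 and 22.7 ± 2.12 CPM without in floxed cells, against 16.4 ± 6.98 and 20.5 ± 1.79 CPM in wild-type cells (1.222 ± 0.29, adjusted p = 0.0376, lost in 9 of the 12 fits with 1 library left out, adjusted p up to 0.114, and in the fit of the 4 groups alone, adjusted p = 0.0757). Pdgfc, a platelet-derived growth factor gene, rose 9.95-fold in floxed cells and 5.35-fold in wild-type cells (0.90 ± 0.21, adjusted p = 0.0371, lost in 8 of the 12 fits with 1 library left out, adjusted p up to 0.11, and in limma-voom, adjusted p = 0.0541). Il17ra, the IL-17 receptor gene, averaged 20.4 ± 0.493 CPM with IL-33 and 26.1 ± 3.09 CPM without in floxed cells, against 15.6 ± 0.666 and 36.8 ± 6.6 CPM in wild-type cells (0.88 ± 0.20, adjusted p = 0.037, lost in 8 of the 12 fits with 1 library left out, adjusted p up to 0.112). Gnas, which encodes the stimulatory G protein subunit, averaged 29.2 ± 4.83 CPM with IL-33 and 22.6 ± 2.77 CPM without in floxed cells, against 30.8 ± 0.978 and 42.0 ± 4.14 CPM in wild-type cells (0.82 ± 0.20, adjusted p = 0.0441, lost in 9 of the 12 fits with 1 library left out, adjusted p up to 0.138, and in limma-voom, adjusted p = 0.0541). Lsr, a lipoprotein receptor gene, averaged 32.6 ± 4.43 CPM with IL-33 and 20.4 ± 2.47 CPM without in floxed cells, against 30.5 ± 2.17 and 33.3 ± 3.76 CPM in wild-type cells (0.81 ± 0.19, adjusted p = 0.0366, lost in 8 of the 12 fits with 1 library left out, adjusted p up to 0.108). Gnas shares 21.96% and Lsr 44.7% of exon bases with other annotated genes.

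Counts in the metabolic lists are set against all 13908 autosomal genes, of which 7269 had negative interactions. Of these genes edgeR called 1.24%, DESeq2 2.58% and limma-voom 1.19%. At an unadjusted p under 0.05, 7.18% were lower and 6.47% higher. Of 28 genes of the TCA cycle and pyruvate entry 1 was called, the fumarase gene Fh1, which rose 1.31-fold in floxed cells and 1.68-fold in wild-type cells (-0.36 ± 0.08, adjusted p = 0.0329, lost in 8 of the 12 fits with 1 library left out, adjusted p up to 0.136, and in the fit of the 4 groups alone, adjusted p = 0.055). Of 18 fatty acid genes 1 was called, Cpt1a, the carnitine palmitoyltransferase of fatty acid entry into mitochondria, with 139.7 ± 3.82 CPM with IL-33 and 153 ± 1.27 CPM without in floxed cells, against 113 ± 3.49 and 148 ± 1.19 CPM in wild-type cells (0.26 ± 0.06, adjusted p = 0.0328, lost in 5 of the 12 fits with 1 library left out, adjusted p up to 0.087, and in the fit with no filter, adjusted p = 0.115). All 16 hypoxia targets had negative interactions, with a median of -0.28, 6 with an unadjusted p under 0.05, 2 called by DESeq2 and 1 by edgeR and limma-voom. That was P4ha2, a collagen prolyl hydroxylase subunit gene, which rose 2.12-fold in floxed cells and 3.69-fold in wild-type cells (-0.80 ± 0.19, adjusted p = 0.0402, lost in 10 of the 12 fits with 1 library left out, adjusted p up to 0.132). Glycolysis (21 genes) had 18 negative interactions and a median of -0.14, and none was called by edgeR, DESeq2 or limma-voom or had an unadjusted p under 0.05. Cholesterol synthesis (22 genes) had 0 called by edgeR and limma-voom, 2 higher by DESeq2, and 3 higher and 1 lower at an unadjusted p under 0.05. Median responses of cholesterol genes were 0.67 in floxed cells and 0.68 in wild-type cells. Itaconate and Nrf2 genes (16) had 0 called by all 3 tools and 4 higher at an unadjusted p under 0.05. Irg1 (Acod1), which makes itaconate, rose 25.1-fold in floxed cells and 22.2-fold in wild-type cells (0.18 ± 0.41, adjusted p = 0.906), and its interaction on the CPM scale had the other sign, -16.5 CPM. Uncoupling and mitochondrial genes (17) had 0 called by all 3 tools and 3 lower at an unadjusted p under 0.05. Ucp2, the uncoupling protein gene, averaged 912 ± 25.7 CPM with IL-33 and 1038 ± 50.8 CPM without in floxed cells, against 900.0 ± 12.8 and 960.5 ± 12.9 CPM in wild-type cells (-0.09 ± 0.06, adjusted p = 0.509).

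For the immune lists the same shares apply: 1.24% of all 13908 autosomal genes called by edgeR, 2.58% by DESeq2 and 1.19% by limma-voom. At an unadjusted p under 0.05 they were 7.18% lower and 6.47% higher, and 7269 of all interactions were negative. Inflammatory cytokines (19 tested) had 0 called by all 3 tools, 1 higher and 2 lower at an unadjusted p under 0.05, with median responses of 3.23 in floxed cells and 3.45 in wild-type cells. Their median interaction was -0.30, and 11 of the 19 interactions were negative. NF-kB targets (18) had 0 called by edgeR and limma-voom, 2 lower by DESeq2, and 1 higher and 5 lower at an unadjusted p under 0.05. Interferon-stimulated genes (24) had 0 called by all 3 tools and 0 at an unadjusted p under 0.05, with 12 positive and 12 negative. Type 2 cytokines and receptors (11 tested) had 0 called by all 3 tools and 1 lower at an unadjusted p under 0.05, the IL-4 receptor chain gene Il4ra (-0.37). Complement (12 tested) had 2 lower by DESeq2 and 1 by edgeR and limma-voom, C1qa, a subunit gene of the first component, with 1007 ± 27.5 CPM with IL-33 and 674 ± 53.3 CPM without in floxed cells, against 1159 ± 68.9 and 583 ± 14.7 CPM in wild-type cells (-0.41 ± 0.09, adjusted p = 0.0329, lost in 8 of the 12 fits with 1 library left out, adjusted p up to 0.131). Matrix remodelling (18) had 1 gene called by edgeR and limma-voom, Spp1, and DESeq2 called 2 higher and 1 lower. Growth factors (14 tested) had Pdgfc higher and Igf1 lower by edgeR. DESeq2 called 1 higher and 2 lower, and limma-voom Igf1 alone. SOCS genes (14) had Socs6, a suppressor of cytokine signalling gene, called (0.41 ± 0.10, adjusted p = 0.0466, lost in 8 of the 12 fits with 1 library left out, adjusted p up to 0.112). Apoptotic cell clearance (17) had 0 called by edgeR and limma-voom, 1 lower by DESeq2, and 1 higher and 3 lower at an unadjusted p under 0.05. Osteoclast genes (10), stress-response genes (19) and cell cycle genes (27) had 0 called by all 3 tools. At an unadjusted p under 0.05 they held 1 higher, 3 lower and 8 lower genes, in that order, and 23 of 27 cell cycle interactions were negative (median -0.17).

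**Figure D5:**
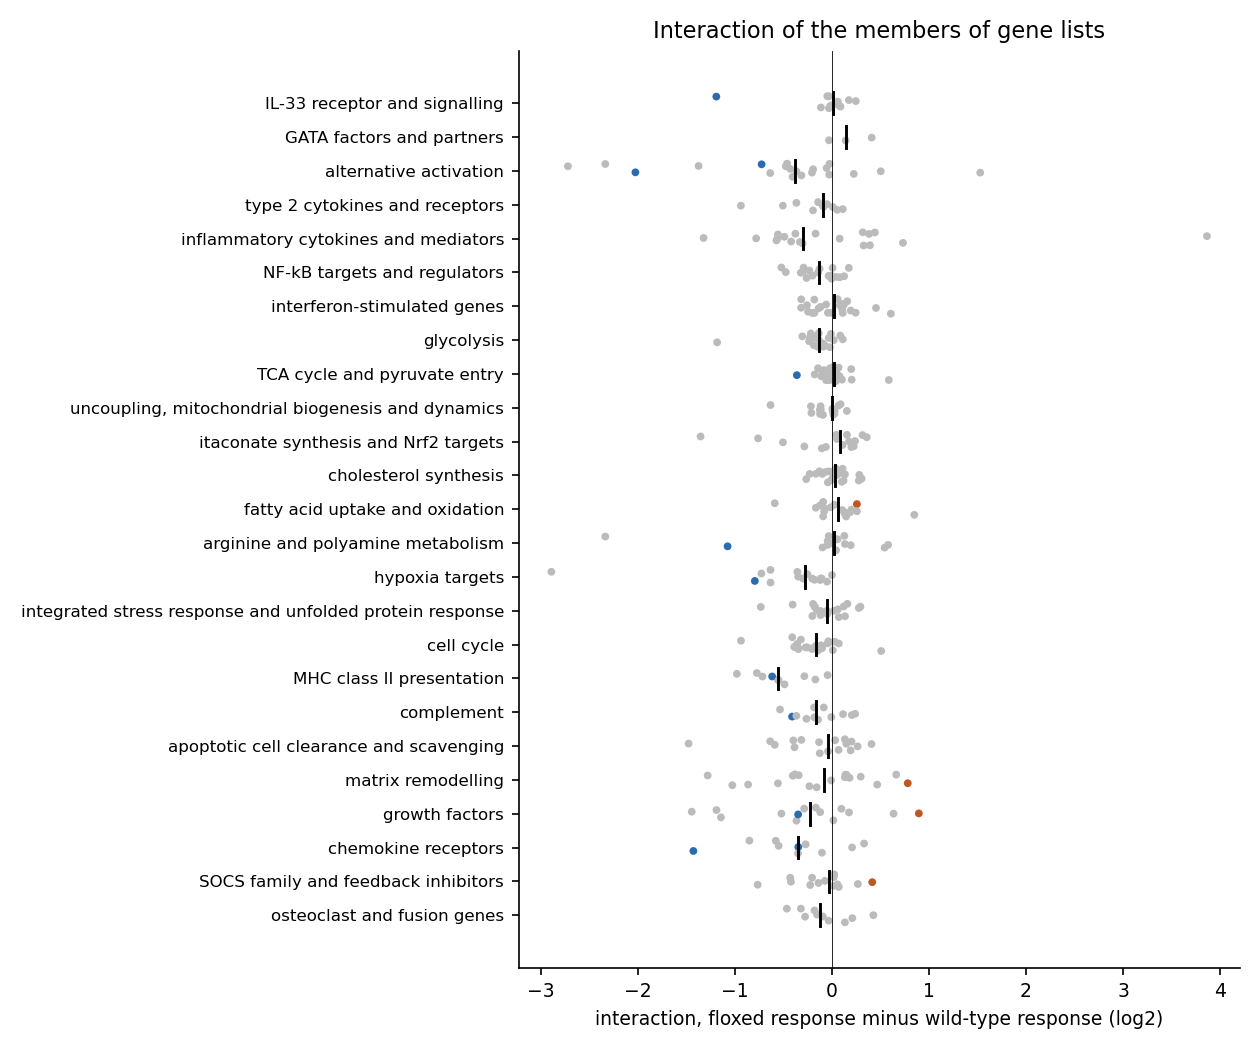
Interaction (log2, horizontal axis) of each tested member of 25 gene lists, 1 point per gene; blue points were called lower, orange points called higher and grey points not called by edgeR, and black bars are list medians. Lists with medians left of 0 include MHC class II (-0.55), alternative activation (-0.39), chemokine receptors (-0.35), inflammatory cytokines (-0.30), hypoxia targets (-0.28) and growth factors (-0.23). The median over all autosomal genes was -0.01, and the IL-33 receptor list has Il1rl1 as its only called point.

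Markers of other cells were examined for the same interaction, called by edgeR for 1.24% of all autosomal genes, by DESeq2 for 2.58% and by limma-voom for 1.19%. At an unadjusted p under 0.05 the shares were 7.18% lower and 6.47% higher. Macrophage core markers had C1qa and Adgre1, the F4/80 gene, called lower of 11 by edgeR and limma-voom, and DESeq2 called 1 higher and 3 lower. Adgre1 averaged 1694 ± 159 CPM with IL-33 and 1564 ± 36.8 CPM without in floxed cells, against 2183 ± 124 and 1619 ± 73.0 CPM in wild-type cells (-0.32 ± 0.08, adjusted p = 0.0441, lost in 10 of the 12 fits with 1 library left out, adjusted p up to 0.179, and in the fit of the 4 groups alone, adjusted p = 0.0806). Monocyte markers (9) had Ccr2 called, and neutrophil markers (12 tested) had Csf3r, the G-CSF receptor gene, which averaged 169 ± 16.7 CPM with IL-33 and 117 ± 9.54 CPM without in floxed cells, against 216 ± 32.3 and 93.2 ± 5.63 CPM in wild-type cells (-0.68 ± 0.13, adjusted p = 0.0113). The Csf3r call was lost without floxed IL-33 library 3 or unstimulated wild-type library 1 (adjusted p up to 0.0594). Neutrophil markers summed to 455 to 535 CPM in floxed IL-33 libraries and 173 to 195 CPM in unstimulated floxed libraries, against 382 to 527 and 124 to 137 CPM in wild-type libraries with and without IL-33. Lymphocyte and ILC2 markers (10 tested), which include Gata3, summed to 268 to 302 and 333 to 343 CPM in floxed libraries with and without IL-33, against 159.7 to 179 and 198 to 229 CPM in wild-type libraries. Of them 0 were called by all 3 tools, and 1 was higher and 1 lower at an unadjusted p under 0.05. Mast cell and basophil markers (6 tested) had 0 called by all 3 tools and 1 higher at an unadjusted p under 0.05, and dendritic cell markers (10) had 0 called by all 3 tools and 3 lower. Erythroid and megakaryocyte markers (4 tested) had 0 called by all 3 tools and 2 lower at an unadjusted p under 0.05. Stromal markers (6 tested) had 0 called by edgeR and DESeq2, 1 lower by limma-voom, and 1 higher and 1 lower at an unadjusted p under 0.05. Monocyte markers summed to 774 to 885 CPM in floxed IL-33 libraries and 369 to 382 CPM in unstimulated floxed libraries, against 786 to 1263 and 285 to 337 CPM in wild-type libraries with and without IL-33. Mast cell and basophil markers summed to 10.1 to 13.3 CPM in floxed IL-33 libraries and 9.11 to 14.2 CPM in unstimulated floxed libraries, against 3.66 to 7.38 and 7.91 to 12.3 CPM in wild-type libraries with and without IL-33. Erythroid and megakaryocyte markers summed to 135 to 167 CPM in floxed IL-33 libraries and 20.2 to 28.4 CPM in unstimulated floxed libraries, against 165 to 218 and 14.8 to 23.1 CPM in wild-type libraries with and without IL-33. Stromal markers summed to 2.88 to 3.89 CPM in floxed IL-33 libraries and 2.67 to 5.69 CPM in unstimulated floxed libraries, against 2.35 to 3.56 and 1.15 to 2.23 CPM in wild-type libraries with and without IL-33. Mcpt4 and Tpsab1 of mast cells, Lum of stroma and Hbb-bs of red cells had 0 counts in all 12 libraries. The part of these cells in the differences above was not tested.

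Cells labelled ST2-/- (C57BL/6, 3 libraries with IL-33 and 3 without) were set beside the floxed response. Il1rl1 stood at 15.8 ± 2.51 and 17.4 ± 2.95 CPM in these libraries with and without IL-33, near the wild-type level, so counts per gene did not check that label. The floxed response minus the ST2-/- response was called for 2874 autosomal genes (20.7%). This comparison reuses the floxed libraries of the interaction and is not independent of it. Ccr3 stood at 4.64 ± 0.309 and 4.49 ± 1.01 CPM in cells labelled ST2-/- with and without IL-33, and Arg1 at 0.74 ± 0.402 and 0.51 ± 0.33 CPM. The Arg1 response was larger in floxed than in cells labelled ST2-/- by 7.06 ± 0.73 log2 units (adjusted p = 3.08e-07). Among the stable lower genes the floxed response was not distinguished from the ST2-/- response for Gatm (0.06 ± 0.09, adjusted p = 0.723), Abcd2 (0.04 ± 0.09, 0.838), Sdc4 (-0.08 ± 0.07, 0.538) or Fcgrt (-0.09 ± 0.11, 0.616). It was larger for Tfrc (0.98 ± 0.12, 2.9e-06), Ptgs1 (1.219 ± 0.11, 4.33e-08) and Igf1 (1.03 ± 0.06, 3.99e-11). For Il1rl1 the floxed response was the lower one, with a log2 difference of -1.04 ± 0.20 (adjusted p = 0.000676).

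Called genes were spread over the autosomes. Between 0.680% (chromosome 3) and 2.12% (chromosome 4) of tested genes on each chromosome were called, and every autosome held at least 5. Within 10 Mb of Gata3, 0 of 73 tested genes had a called interaction. Within 10 Mb of Cx3cr1, whose promoter drives the Cre, 4 of 119 did (Sacm1l, Ccr3, Itga9 and Ccr2). That share was larger than the 7 of 777 on all of chromosome 9 (0.901%) and the 1.24% of all autosomal genes. Without cytokine the genotypes differed in 15 of the 119 and in 4 of the 73 near Gata3, against 9.76% of all autosomal genes. The part of these loci in the calls was not tested. The labels do not say how the Cre was inserted.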

How the data were processed

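RNA of bone marrow-derived macrophages was sequenced as paired reads, and the authors deposited read counts per gene for 21 libraries, with no normalization. Per the submitters' processing notes the tools were HISAT2 2.0.5, HTSeq 0.6.1 and DESeq2 1.22.2 and the build GRCm38 (mm10). The annotation and the strand setting of the counting are not given in the sources used here, so a gene and an overlapping or antisense neighbour cannot be told apart.

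The counts of all 21 libraries (7 groups of 3) entered 1 quasi-likelihood fit in edgeR 4.0.16 (R 4.3.3) with TMM normalization. The filterByExpr rule kept 14473 genes and at least 99.97% of each library's counts. The common dispersion was 0.00740 (a biological coefficient of variation of 0.0860) with 14 residual degrees of freedom. The interaction was a contrast of 4 group means, tested over all genes with Benjamini-Hochberg adjustment. GENCODE M21 gave positions and gene types for 46574 of the 47069 genes. Alternatives used upper-quartile normalization, DESeq2 1.42.0, limma 3.58.1 (voom), no filter, at least 1 CPM in 3 libraries, only the 4 groups, a replicate block, no X or Y genes, and each of the 12 libraries left out. A comparison of CPM differences without logs was added later. The steps were also run on simulated counts that took their spread from these libraries, and the outcome is not reported here.

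Replicate numbers come from the last digit of the sample titles. Deviations of same-numbered libraries correlated between -0.0117 and 0.0626, and those of different-numbered libraries between -0.0878 and 0.0530. The ranges overlapped, though most same-numbered values were positive. Deviations within a group cancel out, so these ranges are a weak guide to pairing. The numbers were not taken to pair samples in the main fit. With the replicate number as a block, edgeR called 347 interactions against 172 in the main fit. Whether this reflects a shared replicate effect was not tested. Named genes were 9 fixed genes, the 10 highest and 10 lowest interactions among called protein-coding genes whose mean level reached 2 log2 CPM, and up to 3 called members of each of 34 lists. Il33, of the fixed genes, did not pass the filter. The members, lists and rules were chosen with earlier results of these data known. Genes added because they were called in every fit were chosen after their values were seen. Some genes that were examined are not reported here by name.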

Additional observations from a re-analysis of the deposited data

Results flagged for a closer look

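Among the named genes, 8 had IL-33 responses called in opposite directions in floxed and wild-type cells, with the difference itself called. Clec4b1 had an interaction of -1.91, with a floxed response of -1.36 (adjusted p = 1.87e-05) and a wild-type response of 0.56 (0.0446). Gnas had an interaction of 0.82, with a floxed response of 0.37 (adjusted p = 0.0453) and a wild-type response of -0.45 (0.0139). Gpr65 had an interaction of -0.85, with a floxed response of -0.42 (adjusted p = 0.000968) and a wild-type response of 0.43 (0.000615). Nme4 had an interaction of -0.74, with a floxed response of -0.39 (adjusted p = 0.00263) and a wild-type response of 0.35 (0.00424). Ms4a7 had an interaction of -0.65, with a floxed response of -0.47 (adjusted p = 6.07e-06) and a wild-type response of 0.18 (0.0394). Fyn had an interaction of -0.56, with a floxed response of -0.14 (adjusted p = 0.0277) and a wild-type response of 0.42 (3.23e-07). Sntb2 had an interaction of 0.62, with a floxed response of 0.38 (adjusted p = 0.000472) and a wild-type response of -0.24 (0.0159). Bhlhe41 had an interaction of 0.76, with a floxed response of 0.28 (adjusted p = 0.0194) and a wild-type response of -0.48 (0.000185). The call of the Gnas interaction was lost in 9 of the 12 fits with 1 library left out, adjusted p up to 0.138, and in limma-voom, adjusted p = 0.0541, and Gnas shares 21.96% of its exon bases with other genes. The other 7 held in every fit, but all of them except Clec4b1 were named because they did.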

How the results depend on the processing

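The count of 172 interactions (76 higher, 96 lower) was 359 with DESeq2 (189 and 170), 536 with no expression filter (220 and 316), and within 1.5 times of 172 in the other fits of all libraries without a block. With the replicate number as a block it was 347 (178 and 169), or 295 (143 and 152) in a fit of the 4 groups alone. Deviations of same-numbered libraries correlated only weakly (-0.0117 to 0.0626). Leaving out 1 library gave 52 to 266 calls, 19 to 144 higher and 33 to 122 lower. The floxed minus wild-type count of 1357 without cytokine ranged from 622 to 1414 and that of 1566 under IL-33 from 960 to 1535. The floxed response (3911 to 4735), the wild-type response (4215 to 4990) and the floxed minus ST2-/- response (2466 to 2939) stayed within 1.5 times. On the scale of CPM without logs the interaction of Slc22a4 turned to 3.82 CPM and that of Dkk2 to -3.09 CPM, a change that follows from the unequal starting levels of the genotypes. The uncalled interactions of Irg1 (-16.5 CPM) and Chil3 (4.07 CPM) also had the other sign on that scale. The cause of the other changes was not tested. No alternative shifted the median interaction of all genes by more than 0.1. Precision is limited by 3 libraries a group and, for Arg1, Retnla and Gata3, by low counts without cytokine.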
